A study of Mus musculus with 26 samples.

Results

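This report describes 9 genes of the chemokine system in the degenerating mouse retina, 7 ligands (Ccl2, Ccl3, Ccl4, Cxcl10, Cxcl12, Cxcl16 and Cx3cl1) and 2 receptors (Ccr2 and Cxcr4), out of 37991 genes in the count table. They were taken by name as a family and found by matching Ensembl identifiers to mouse symbols, and each symbol had 1 identifier. The study asked whether inhibitors of enzymes that compact chromatin protect rod photoreceptors in rd10 mice, which carry a homozygous mutation in Pde6b, the catalytic subunit of the rod phosphodiesterase, and lose their rods in the first weeks after birth. RNA-seq was done on 26 libraries in 5 experiments, each with its own controls.

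All animals of the 5 experiments were rd10 (B6.CXB1-Pde6brd10/Jrd10), so the controls also carried the mutation and no healthy retina was measured in these libraries. Mice of both sexes were injected intraperitoneally from postnatal day (PN) 9 to PN24, with an inhibitor or with saline as the control, daily per the labels, whereas the study's text describes DZNep as given less often after the first days, and the retina was taken at PN24. The Romidepsin experiment (an inhibitor of histone deacetylases, HDAC) held 3 control and 3 treated retinas. The UNC0642 experiment (an inhibitor of the histone methyltransferases G9A and GLP) held 2 control and 2 treated retinas. The 2 inhibitors of EZH2, the methyltransferase of histone H3 lysine 27, were tested separately, DZNep in 2 treated retinas against 4 controls and UNC1999 in 3 treated retinas against 3 controls. UNC1999 was given in a diluent of its own that also held DMSO, PEG300 and Tween-80, and its controls are described as given saline in one place and the diluent alone in another, so it is not settled whether compound and diluent can be told apart. In the fifth experiment rods were sorted by flow cytometry from rd10 mice that were also homozygous for the transgene of B6.Cg-Tg(Nrl-EGFP)1Asw/J, in which the rod promoter of Nrl drives a green fluorescent protein, with 2 controls and 2 littermates treated with GSK2879552, an inhibitor of the demethylase LSD1.

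Chemokines are small secreted or membrane-bound proteins that direct the movement of leukocytes through receptors of the G protein-coupled class. CCL2 draws monocytes that carry CCR2 out of the blood, CCL3 and CCL4 attract macrophages and other leukocytes, and CXCL10, a product of interferon and NF-kB signaling, draws T cells that carry CXCR3. CXCL12 acts through CXCR4, CXCL16 and CX3CL1 are made as membrane proteins that can be shed, and CX3CL1 (fractalkine) is a neuronal signal to microglia, the resident macrophages of the retina, which carry its receptor CX3CR1.

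The promoters of the members differ in the sites for inflammatory transcription factors, so the 250 bases before the start site are shown for 4 of them. RefSeq promoter sequences on GRCm38.p6 were found for 6 of the 9 members (Ccl3, Cxcl10, Cxcl12, Cx3cl1, Ccr2 and Cxcr4). Both strands of these windows were searched for an NF-kB site, the core of the interferon-stimulated response element (ISRE, GAAANNGAA) and an AP-1 site (TGANTCA), and matches are in capitals. The windows are chr5:92348890-92349139 (minus strand) for Cxcl10, chr11:83649379-83649628 (minus strand) for Ccl3, chr9:124101933-124102182 (plus strand) for Ccr2 and chr8:94771930-94772179 (plus strand) for Cx3cl1, and each is written 5′ to 3′ on the strand of its gene.
Cxcl10: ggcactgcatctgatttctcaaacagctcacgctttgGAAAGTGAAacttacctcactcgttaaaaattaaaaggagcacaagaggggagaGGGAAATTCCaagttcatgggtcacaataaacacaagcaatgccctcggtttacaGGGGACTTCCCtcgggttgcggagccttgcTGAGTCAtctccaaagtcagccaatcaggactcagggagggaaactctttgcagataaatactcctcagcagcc
Ccl3: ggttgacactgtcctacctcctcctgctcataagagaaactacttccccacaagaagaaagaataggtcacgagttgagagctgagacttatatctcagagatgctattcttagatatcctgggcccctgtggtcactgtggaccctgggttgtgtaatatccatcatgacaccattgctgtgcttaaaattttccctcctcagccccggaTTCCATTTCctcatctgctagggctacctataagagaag
Ccr2: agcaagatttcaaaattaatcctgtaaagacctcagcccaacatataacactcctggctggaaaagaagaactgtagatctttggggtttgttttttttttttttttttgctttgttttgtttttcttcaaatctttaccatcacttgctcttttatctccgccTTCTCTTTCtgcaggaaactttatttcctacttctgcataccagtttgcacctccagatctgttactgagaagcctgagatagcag
Cx3cl1: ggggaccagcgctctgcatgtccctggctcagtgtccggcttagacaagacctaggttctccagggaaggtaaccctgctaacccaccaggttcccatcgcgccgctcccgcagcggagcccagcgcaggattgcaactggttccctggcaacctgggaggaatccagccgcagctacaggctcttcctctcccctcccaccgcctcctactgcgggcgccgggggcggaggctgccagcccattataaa
Cxcl10 was the member with matches to all 3 motifs. Its NF-kB matches lay 159 to 150, 104 to 95 and 103 to 94 bases before the start site, the last pair overlapping each other, its ISRE core lay 213 to 205 bases before it and its AP-1 match 74 to 68 bases before it. Ccl3 held 1 ISRE core at 39 to 31 bases and Ccr2 held 1 at 86 to 78 bases, both on the reverse strand. Cx3cl1, Cxcl12 and Cxcr4 held none of these letters. Of all 32851 RefSeq windows of this length, 7.25% held the NF-kB motif, 7.13% the ISRE core and 6.75% the AP-1 motif. The same windows separated by CpG dinucleotides, with 19 in Cxcr4, 14 in Cxcl12, 14 in Cx3cl1, 5 in Cxcl10, 2 in Ccl3 and 1 in Ccr2, against a median of 6 over all windows.

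In the genome build of the counts (NCBIM37), Ccl2 lies at chr11:81849073-81850955, Ccl3 at chr11:83461346-83462857 and Ccl4 at chr11:83476086-83478185. Only 13228 bases separate Ccl3 from Ccl4, and 11 of the 23 CC ligand genes with a position lie in the same part of this chromosome. Cxcl16 is on the same chromosome, at chr11:70267485-70273486. The other members are dispersed, Cxcl10 at chr5:92775664-92777915, Cxcl12 at chr6:117118553-117131385, Cx3cl1 at chr8:97295909-97306323, Ccr2 at chr9:124016689-124028296 and Cxcr4 at chr1:130484776-130488870. Exons of Cxcl16 and of Zmynd15 share 552 bases on opposite strands, and exons of Cxcl10 and of Art3 share 133. The strand setting of the read counting was not given in the sources used here, so reads in these shared bases may not be told apart. Zmynd15 was at 2.70 to 8.96 CPM (counts scaled to a common library size) and Art3 at 0.946 to 2.27 CPM in the 22 retinas.

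The libraries held 13732959 to 36354094 counted reads in the 22 retinas and 7289460 to 19864491 in the 4 sorted rod libraries. Levels are given as CPM with library sizes scaled within each experiment, and a count of 3, below which a level is at the limit of counting, corresponded to 0.0875 to 0.401 CPM. In the sorted rods the 12 rod markers summed to 56780 to 85867 CPM in the controls, above the 9220 to 38069 CPM of the 12 control retinas, and the 12 microglial markers summed to 61.0 to 70.8 CPM in the controls, below the 175 to 608 CPM of the control retinas. The sorted rods were made into libraries with a different kit (SMART-Seq), so sorting and kit cannot be told apart in these levels. A gene was called changed in edgeR's quasi-likelihood test when its Benjamini-Hochberg adjusted p over all genes tested was under 0.05, with any fold, and separately when the fold change also exceeded 1 on the log2 scale.

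Per transcript length, Cx3cl1 was the highest of the 9 members in every control retina. Over the 12 control retinas the median level of Cx3cl1 was 62.3 RPKM (CPM per kilobase of exon), with a range of 53.8 to 68.7. Cxcl16 followed at 10.3 RPKM (7.96 to 20.8) and Cxcl12 at 3.66 RPKM (2.95 to 4.18), and the ranges of these 3 genes did not overlap. The other members came next in the order Cxcl10 (2.39 RPKM), Cxcr4 (2.36 RPKM), Ccl3 (1.31 RPKM), Ccl2 (0.884 RPKM), Ccl4 (0.412 RPKM) and Ccr2 (0.341 RPKM), and no neighbours in this order differed beyond their ranges.

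**Figure D1:**
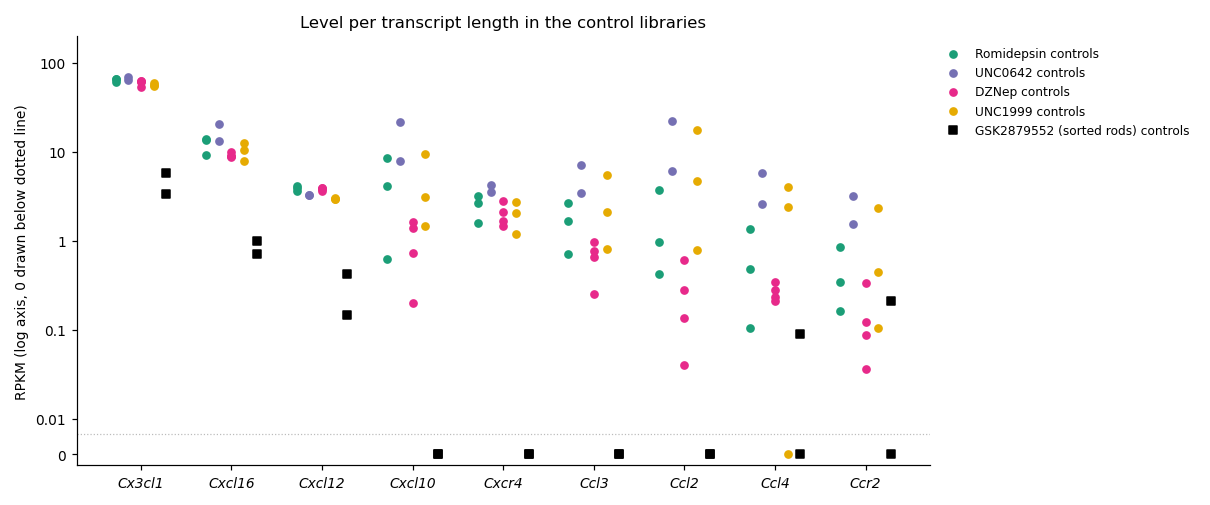
Level of each member in RPKM (log axis, libraries at 0 drawn below the dotted line) in the control libraries, colored by experiment, with the 2 control libraries of sorted rods as black squares. Cx3cl1 stands highest in every control retina, at 53.8 to 68.7 RPKM, and the inducible ligands and Ccr2 spread over more than an order of magnitude.

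The spread among untreated rd10 retinas differed just as much between the members. The highest control retina exceeded the lowest in CPM by 1.28-fold for Cx3cl1, 1.41-fold for Cxcl12, 2.61-fold for Cxcl16 and 3.57-fold for Cxcr4. For Ccl3 this ratio was 28.8-fold, for Ccr2 89.4-fold, for Cxcl10 108-fold and for Ccl2 544-fold, and Ccl4 was at 0 in 1 control retina. The controls of the DZNep experiment included the lowest for Ccl2 (0.0460 to 0.692 CPM) and those of the UNC0642 experiment among the highest (6.88 and 25.0 CPM). Each treatment was therefore read against its own controls.

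In the sorted rods the members were low or absent. Cxcl10 and Cxcr4 had no count in any of the 4 libraries, which allows a level of up to 0.156 to 0.401 CPM. Ccl2 had 0 counts in both controls and 1 and 2 counts in the treated rods, Ccl3 had 4 counts in 1 treated library and none in the others, and Ccl4 had at most 1 count per library. Ccr2 had 10 counts (1.34 CPM) in control 1 and 0 in control 2, and 2 and 0 counts in the treated rods. Cx3cl1 was the member with the highest level, at 12.6 and 21.7 CPM in the controls and 14.2 and 24.6 CPM in the rods treated with GSK2879552.

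Only 3 members had enough counts to be tested in the rods, and none was called, against a background of 0% of the 14478 genes tested with any fold and 0% with the fold limit. The log2 fold change was 0.16 ± 0.39 (SE, 2 treated and 2 control libraries) for Cx3cl1, 0.04 ± 0.68 for Cxcl12 and 0.50 ± 0.56 for Cxcl16, with an edgeR adjusted p of at least 0.989. Over all genes 711 had an unadjusted p under 0.05 in these libraries. The groups overlapped for each of the 3 members, while 33.2% of all genes tested had groups that did not overlap. The 95% interval of Cx3cl1 ran from -0.72 to 1.04 on the log2 scale, so changes of that size were not detectable here.

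Of the inducible ligands, Ccl2, Ccl3 and Ccl4 were called in none of the retina experiments. In the Romidepsin experiment Ccl2, the monocyte chemoattractant, was at 0.479, 4.27 and 1.11 CPM in the 3 controls and at 3.05, 8.44 and 2.47 CPM in the 3 treated retinas. The groups overlapped, since control 2 exceeded treated retinas 1 and 3. The log2 fold change was 1.21 ± 0.71 (SE; edgeR adjusted p = 0.383).

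For UNC0642, Ccl2 was at 25.0 and 6.88 CPM in the controls and at 44.1 and 10.6 CPM in the treated retinas, and control 1 lay between the treated retinas (log2 fold change 0.77 ± 0.73, edgeR adjusted p = 0.616). In the DZNep experiment it was at 0.319, 0.0460, 0.692 and 0.153 CPM in the controls and at 0.175 and 0.223 CPM after treatment, which is 1 to 15 counts per library and too low to be tested. UNC1999 gave the widest controls, at 19.9, 5.35 and 0.905 CPM, and the treated retinas, at 1.49, 4.46 and 7.78 CPM, lay between them. The log2 fold change of Ccl2 was -0.87 ± 0.90 with UNC1999 (edgeR adjusted p = 0.603), and without control 1 its sign turned (0.55, adjusted p = 0.768).

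Ccl3 and Ccl4, which encode macrophage inflammatory proteins, gave overlapping groups as well. With Romidepsin, Ccl3 was at 0.548, 2.03 and 1.27 CPM in the controls and 1.58, 3.53 and 1.12 CPM in the treated retinas, and with UNC0642 it was at 5.51 and 2.65 CPM against 9.65 and 3.86 CPM. With UNC1999 it was at 4.26, 1.60 and 0.619 CPM against 0.497, 1.23 and 2.58 CPM. The groups overlapped in all 3, with an edgeR adjusted p of 0.537, 0.489 and 0.707.

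With DZNep, Ccl3 was at 0.592, 0.506, 0.738 and 0.191 CPM in the controls and at 0.146 and 0.223 CPM in the treated retinas, which rest on 5 and 3 counts. Control 4 lay between the treated retinas, and the log2 fold change of -1.52 ± 0.63 missed the threshold (edgeR adjusted p = 0.116). Without control 4 the call was made (-1.81, adjusted p = 0.0338).

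Ccl4 was at 0.0685, 0.908 and 0.316 CPM in the Romidepsin controls and at 0.962, 1.76 and 0.466 CPM in the treated retinas, and at 3.82 and 1.73 CPM in the UNC0642 controls against 8.04 and 3.72 CPM in the treated retinas. Both differences were above 0, at 1.21 ± 0.70 and 1.07 ± 0.48 on the log2 scale, but the groups overlapped and neither passed the test (edgeR adjusted p = 0.384 and 0.351). Between 1 library without a count and 2.67 CPM in the UNC1999 controls, the treated retinas were at 0.994, 1.27 and 1.13 CPM. In the DZNep experiment Ccl4 had 3 to 5 counts in every library and was not tested.

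**Figure D2:**
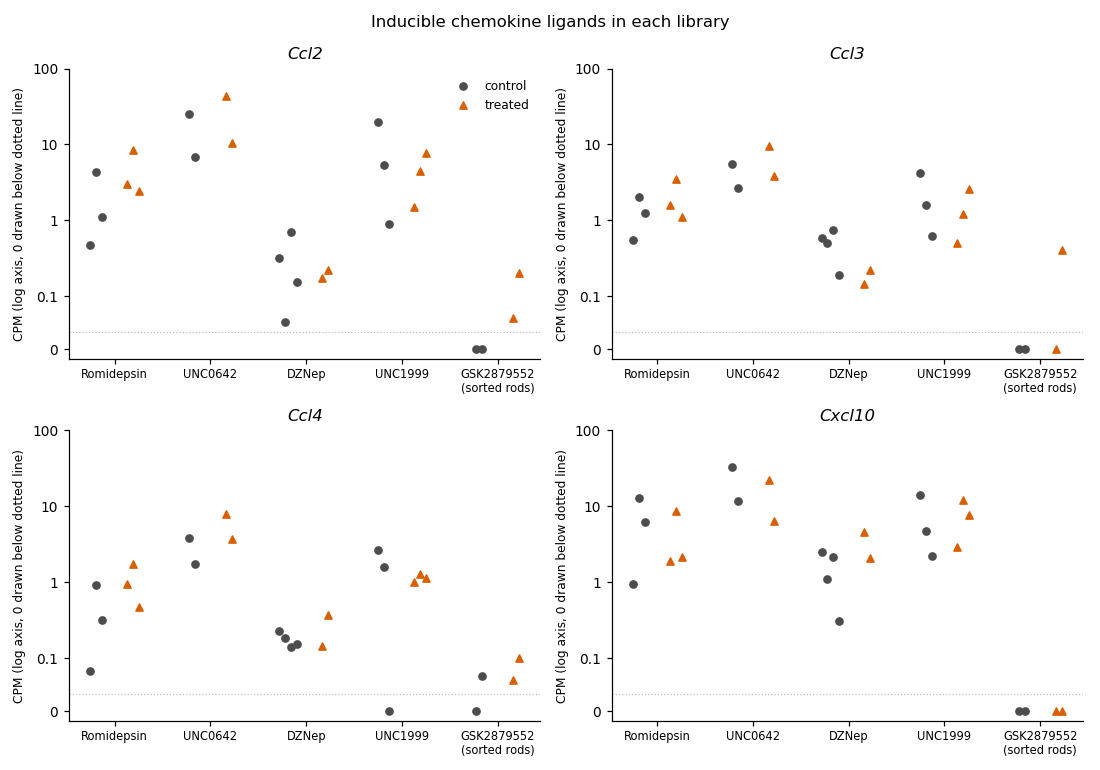
Ccl2, Ccl3, Ccl4 and Cxcl10 in CPM (log axis, libraries at 0 drawn below the dotted line) in every library, with controls as gray circles and treated libraries as orange triangles. Control and treated retinas overlap for all 4 genes in the Romidepsin, UNC0642, DZNep and UNC1999 experiments, and Ccl2 spans 0.0460 to 44.1 CPM over the 22 retinas.

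Cxcl10, the interferon-inducible ligand of CXCR3, was also called in none of the retina experiments. It was at 0.958, 13.0 and 6.27 CPM in the Romidepsin controls and at 1.92, 8.71 and 2.14 CPM in the treated retinas. In the UNC0642 experiment the controls were at 33.0 and 11.9 CPM and the treated retinas at 22.04 and 6.34 CPM. The fitted log2 fold changes were -0.69 ± 0.80 and -0.65 ± 0.62, with overlapping groups in both (edgeR adjusted p = 0.685 and 0.623).

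Both EZH2 inhibitors left Cxcl10 within reach of the controls. The DZNep controls were at 2.50, 1.10, 2.12 and 0.306 CPM and the treated retinas at 4.58 and 2.08 CPM, so that treated retina 1 was the highest and retina 2 lay among the controls (log2 fold change 1.22 ± 0.58, edgeR adjusted p = 0.164). The UNC1999 controls were at 14.3, 4.77 and 2.24 CPM and the treated retinas at 2.92, 12.1 and 7.63 CPM, all between the lowest and the highest control (0.12 ± 0.67, adjusted p = 0.936).

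Cxcl12, the ligand of CXCR4 that many stromal and vascular cells make without an inflammatory signal, rose with DZNep. It was at 32.4, 32.5, 30.0 and 31.1 CPM in the 4 controls and at 47.5 and 37.7 CPM in the 2 treated retinas. Both treated retinas lay above all controls, and the log2 fold change was 0.45 ± 0.09, or 135% of the control mean (edgeR adjusted p = 0.00835). Without treated retina 1 it was 0.26 and no longer called (adjusted p = 0.0961).

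The same gene was higher in the treated retinas of the other EZH2 inhibitor without passing the test. With UNC1999 it was at 24.3, 24.9 and 24.1 CPM in the controls and at 26.1, 31.6 and 47.0 CPM in the treated retinas, which did not overlap, and treated retina 3 stood highest (log2 fold change 0.52 ± 0.19, edgeR adjusted p = 0.158). UNC0642 also gave groups that did not overlap, at 27.1 and 26.7 CPM against 31.9 and 34.2 CPM (0.30 ± 0.09, adjusted p = 0.299). After Romidepsin the treated retinas, at 23.5, 37.7 and 46.5 CPM, spread on both sides of the controls at 34.2, 29.9 and 31.9 CPM (0.17 ± 0.22, adjusted p = 0.723).

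Markers of vascular endothelium, among the cells known to make CXCL12, summed to 788 to 831 CPM in the DZNep controls and to 643 to 676 CPM in the treated retinas. Of these, 8 of 10 tested markers were lower and 2 were called lower, where 22.7% of all genes were called with DZNep. Most of that sum was Kdr, a receptor of VEGF, with means of 519.7 CPM in the controls and 383 CPM in the treated retinas, and the median log2 fold change of the markers was -0.13. In the UNC1999 experiment the sum was 556 to 630 CPM in the controls and 401 to 499 CPM in the treated retinas, again mostly Kdr (means of 422 and 257 CPM), while 6 of 10 markers were lower, 4 were higher, none was called and 3 had an unadjusted p under 0.05 in edgeR (median log2 fold change -0.08). Other tissues that a dissected retina can carry were read by their own markers. Of 10 markers of the retinal pigment epithelium (RPE), 9 were higher with DZNep, with 5 called higher and 1 lower. With UNC1999 10 of 10 were higher and 7 were called, where 0.602% of all genes were called. The RPE markers summed to 730 to 883 CPM in the DZNep controls against 683 to 862 CPM in the treated retinas, and to 474 to 690 CPM against 923 to 1106 CPM with UNC1999. Most of the DZNep sums was Rlbp1, also listed as a Müller glia marker, with means of 670 CPM in the controls and 485 CPM in the treated retinas. It was the 1 called lower. The 5 called higher had lower levels, among them Rgr (means of 18.1 and 73.4 CPM) and Rpe65 (6.18 and 24.1 CPM). With DZNep, 5 of 5 tested blood markers were higher and 1 was called (35.9 to 107 CPM against 66.02 to 147 CPM), and 5 of 5 tested lens markers were higher and 2 were called, with a sum of 4.74 to 6.21 CPM in the controls against 3.79 and 83.3 CPM in the treated retinas. A single DZNep retina thus carried the lens signal. The part of these tissues in the levels of Cxcl12 was not tested.

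Cx3cl1, the neuronal ligand of the microglial receptor CX3CR1, fell slightly with DZNep. Its levels were 200, 235, 224 and 234 CPM in the controls and 185 and 192 CPM in the treated retinas. The groups did not overlap, and the log2 fold change was -0.25 ± 0.07, or 84.4% of the control mean (edgeR adjusted p = 0.0338). This call was lost without any 1 of control 2 (adjusted p = 0.0854), control 3 (0.0763), control 4 (0.0624), treated retina 1 (0.208) or treated retina 2 (0.0993), while the value stayed between -0.22 and -0.27 without each of them.

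In the Romidepsin experiment Cx3cl1 was at 245, 228 and 243 CPM in the controls and at 220, 211 and 196 CPM in the treated retinas, which were all lower, but the difference of -0.19 ± 0.11 on the log2 scale did not pass (edgeR adjusted p = 0.363). The groups overlapped with UNC1999, at 212, 219 and 204 CPM against 192, 206 and 198 CPM, and with UNC0642, at 240 and 255 CPM against 251 and 261 CPM. Their log2 fold changes were -0.09 ± 0.06 and 0.05 ± 0.07 (adjusted p = 0.386 and 0.743), with 95% intervals of -0.23 to 0.04 and -0.12 to 0.22.

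In whole retina, fewer cells of a type and less RNA per cell cannot be told apart, and CPM is a share of all RNA. The 12 rod markers summed to 18684 to 31278 CPM in the DZNep controls and to 57969 to 59841 CPM in the treated retinas, and 12 of 12 were called higher, against 22.7% of all genes. In the UNC1999 experiment this sum was 20083 to 38069 CPM in the controls and 51585 to 70430 CPM in the treated retinas, with 12 of 12 markers higher and 0 called. The part of this larger rod share in the lower Cx3cl1 share was not tested.

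Cxcl16, the membrane-bound ligand of CXCR6, was lower in treated than in control retinas of 3 experiments, without overlap. With Romidepsin it was at 28.2, 40.9 and 41.8 CPM in the controls and at 23.4, 27.6 and 17.9 CPM in the treated retinas (log2 fold change -0.69 ± 0.20, edgeR adjusted p = 0.119). With UNC1999 it was at 38.3, 32.0 and 24.05 CPM against 19.3, 22.02 and 16.8 CPM, a change of nearly the same size (-0.70 ± 0.17, adjusted p = 0.0741). The DZNep groups were closer, at 27.3, 26.4, 30.2 and 26.9 CPM against 22.4 and 24.9 CPM (-0.24 ± 0.08, adjusted p = 0.0597).

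None of the 3 passed the threshold in this test. The likelihood ratio test called Cxcl16 with Romidepsin (adjusted p = 0.0379) and with UNC1999 (adjusted p = 0.00589), and DESeq2 did so too (0.0386 and 0.00396). Over the other alternatives the edgeR adjusted p reached 0.334 with Romidepsin and 0.253 with UNC1999. With UNC0642 Cxcl16 was at 62.7 and 40.3 CPM in the controls and at 52.0 and 38.2 CPM in the treated retinas, which overlapped (log2 fold change -0.19 ± 0.23, edgeR adjusted p = 0.693).

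**Figure D3:**
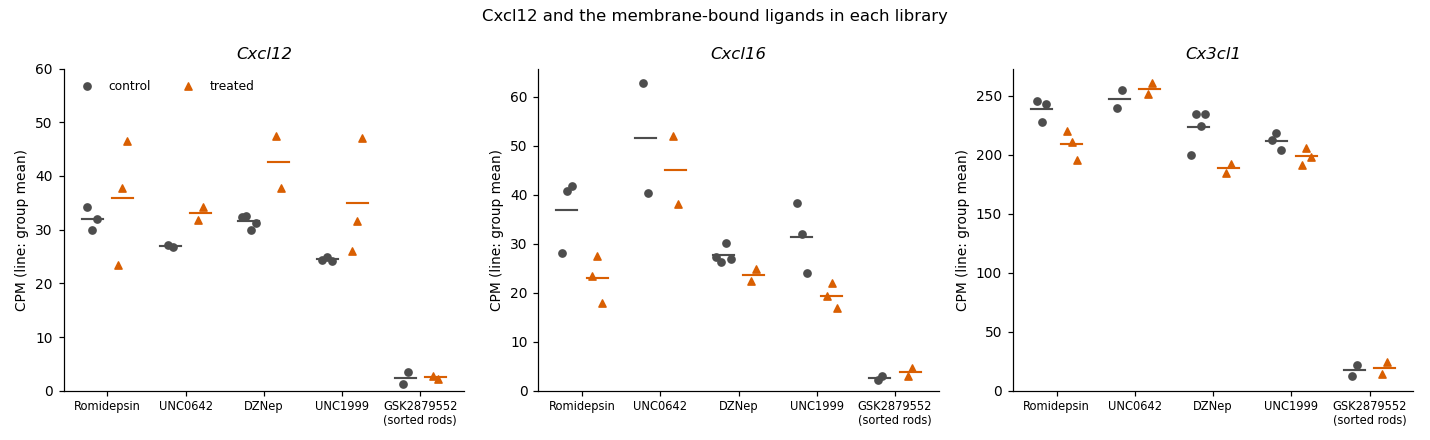
Cxcl12, Cxcl16 and Cx3cl1 in CPM in every library, with a line at each group mean, controls as gray circles and treated libraries as orange triangles. Cxcl12 is higher in both DZNep-treated retinas (37.7 and 47.5 CPM) than in their controls, Cxcl16 is lower in all UNC1999-treated and Romidepsin-treated retinas than in their controls, and all 3 genes are low in sorted rods.

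Ccr2, the receptor of CCL2 that marks inflammatory monocytes, showed the largest fitted changes of the 9 members, both with an EZH2 inhibitor. With UNC1999 it was at 15.1, 2.87 and 0.667 CPM in the controls and at 0.0621, 0.273 and 0.235 CPM in the treated retinas. All treated retinas lay below the lowest control, with 1, 6 and 6 counts against 294, 79 and 14. The fitted log2 fold change was -4.88 ± 1.24 (edgeR adjusted p = 0.0761), and the summed counts per effective library size were 3.59% of those in the controls, with an exact binomial 95% interval of 1.89% to 6.21% that covers counting error only.

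Much of the size of this value came from control 1, without which the log2 fold change was -3.13 (edgeR adjusted p = 0.18). Ccr2 missed the threshold by a small margin, and it passed in the likelihood ratio test (adjusted p = 0.000409), in DESeq2 (0.00321), without a filter on low counts (0.0307) and without control 3 (0.00585).

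With DZNep, Ccr2 was at 2.14, 0.552, 0.784 and 0.229 CPM in the controls and at 0.0875 and 0.149 CPM in the treated retinas. The groups did not overlap, but the treated retinas held only 3 and 2 counts, so a ratio is given with its counting interval. The summed treated counts came to 11.7% of the controls per effective library size, with an exact binomial 95% interval of 3.70% to 28.4%. The edgeR adjusted p was 0.0694, and it was 0.0112 in the likelihood ratio test, 0.0219 without the filter and 0.0249 without control 4. DESeq2 did not call Ccr2 here, so the call was not made under every alternative. Over all alternatives the log2 fold change ran from -3.74 to -2.21.

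UNC0642 and Romidepsin gave overlapping groups. In the UNC0642 experiment Ccr2 was at 20.5 and 9.86 CPM in the controls and at 17.2 and 2.77 CPM in the treated retinas, so that only treated retina 2 was below both controls (log2 fold change -0.58 ± 0.71, edgeR adjusted p = 0.698). In the Romidepsin experiment it was at 1.03, 5.45 and 2.21 CPM in the controls and at 2.55, 0.882 and 0.979 CPM in the treated retinas (-1.01 ± 0.61, adjusted p = 0.399). Without Romidepsin control 2 this difference came to -0.17 (adjusted p = 0.933).

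Cxcr4, the receptor of CXCL12 on leukocytes and some neural and vascular cells, was lower than its controls in every retina treated with UNC1999. It was at 4.93, 3.67 and 2.14 CPM in these controls and at 1.49, 1.68 and 1.29 CPM in the treated retinas, without overlap (log2 fold change -1.27 ± 0.32, edgeR adjusted p = 0.0743). The likelihood ratio test (adjusted p = 0.00636), DESeq2 (0.0125), the fit without the filter (0.0405) and that without control 3 (0.00496) called it. Over all alternatives its log2 fold change ran from -1.52 to -0.98, and the edgeR adjusted p reached 0.253. With DZNep, Cxcr4 was at 5.05, 2.99, 3.78 and 2.64 CPM against 3.36 and 3.13 CPM, so that the treated retinas lay among the controls (-0.15 ± 0.26, adjusted p = 0.724).

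The other experiments gave lower means of Cxcr4 that did not pass. Romidepsin controls were at 2.87, 4.75 and 5.80 CPM and treated retinas at 2.60, 2.87 and 2.94 CPM, where only control 1 lay within the treated range (log2 fold change -0.68 ± 0.27, edgeR adjusted p = 0.217). UNC0642 controls were at 7.64 and 6.39 CPM and treated retinas at 6.31 and 4.73 CPM, without overlap (-0.34 ± 0.21, adjusted p = 0.461).

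Markers of microglia and myeloid cells, which can carry these receptors, are given beside them. The 12 microglial markers summed to 177 to 277 CPM in the UNC1999 controls and to 112 to 135 CPM in the treated retinas, with 11 of 12 tested markers lower, a median log2 fold change of -1.12 and 0 called. In the DZNep experiment the sum was 175 to 317 CPM in the controls and 151 to 158 CPM in the treated retinas, with 11 of 12 lower and 1 called, against 22.7% of all genes. With UNC0642 it was 476 to 608 CPM against 299 to 403 CPM, and with Romidepsin 310 to 489 CPM against 251 to 354 CPM. The median log2 fold change of all genes tested lay between -0.01 and 0 in these 4 experiments.

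Markers of blood-derived myeloid cells summed to 26.7 to 43.3 CPM in the UNC1999 controls and to 23.7 to 27.5 CPM in the treated retinas. Much of these sums was Lyve1, with a mean of 21.4 CPM in both groups. All 3 of 3 tested markers were lower, but Lyve1 (log2 fold change -0.002) and Flt3 (-0.06) hardly moved. Itgax was at -2.59 ± 0.62 (SE, edgeR adjusted p = 0.0695). The DZNep sums were 27.5 to 31.6 CPM and 25.7 to 28.2 CPM, with Lyve1 at means of 21.8 and 20.7 CPM. There 4 of 5 tested markers were lower, where 22.7% of all genes were called. Itgax was called lower (log2 fold change -1.73) and S100a9 higher (3.18, from a mean of 0.116 CPM). With Romidepsin the sums were 35.8 to 48.3 CPM in the controls and 28.6 to 32.8 CPM in the treated retinas. Of 7 tested markers 6 were lower and 0 called, against 0.748% of all genes. With UNC0642 the sums were 52.2 to 71.8 CPM and 31.2 to 52.9 CPM, with 6 of 9 tested markers lower and 0 called, against 0% of all genes. No microglial marker was at 0 throughout a group of retinas. Of the myeloid markers, Ly6g was at 0 in the DZNep controls, in the UNC1999-treated retinas and in both groups of the UNC0642 experiment, Cd163 in the UNC1999 controls and Ly6c2 in the DZNep-treated retinas. The part of these cells in the levels of Ccr2, Cxcr4 and Cxcl16 was not tested.

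The ligand and the receptor of the CCL2 axis did not keep the same proportion, a pattern that was chosen after the values were seen and is given without a test. In the UNC1999 controls there were 1.32, 1.86 and 1.36 counts of Ccl2 per count of Ccr2. In the treated retinas there were 24, 16.3 and 33.2, over only 1, 6 and 6 counts of Ccr2. With Romidepsin the ratios were 0.467, 0.784 and 0.500 in the controls and 1.20, 9.56 and 2.52 in the treated retinas. With UNC0642 they were 1.22 and 0.698 against 2.57 and 3.82.

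In the DZNep experiment the ratios were 0.149, 0.0833, 0.882 and 0.667 in the controls and 2 and 1.5 in the treated retinas, the latter from 6 and 3 counts of Ccl2 over 3 and 2 counts of Ccr2. The ratio was thus above every control in every treated retina of the 4 experiments. The share of single genes with groups that did not overlap was 27.4% for UNC1999, 26% for Romidepsin, 52.1% for UNC0642 and 45.9% for DZNep. These shares count single genes in either direction, and no share was computed for ratios of genes.

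**Figure D4:**
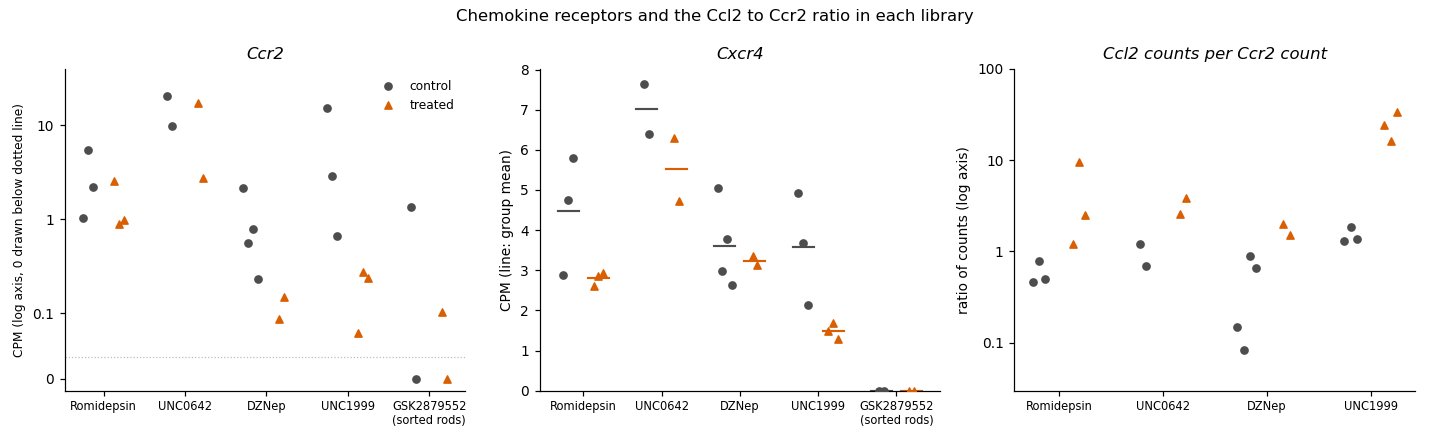
Ccr2 (CPM, log axis, libraries at 0 drawn below the dotted line), Cxcr4 (CPM, with a line at each group mean) and the counts of Ccl2 per count of Ccr2 in the retinas (log axis), with controls as gray circles and treated libraries as orange triangles. Ccr2 is at or below 0.273 CPM in all retinas treated with UNC1999 or DZNep, and the ratio is highest with UNC1999, at 16.3 to 33.2, over 1, 6 and 6 counts of Ccr2.

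Across the 9 members, DZNep gave 2 calls among 7 members tested with any fold, Cxcl12 higher and Cx3cl1 lower, where 22.7% of the 16477 genes tested were called. With the fold limit it called 0 members, against 1.71% of all genes. The groups of 4 tested members did not overlap, against 45.9% of all genes. Ccl2 and Ccl4 did not pass the filter on low counts.

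All 9 members were tested in the 3 other retina experiments and 0 were called in edgeR's quasi-likelihood test. For UNC1999 the background was 0.602% of the 15775 genes with any fold and 0.368% with the fold limit, 4 members had an unadjusted p under 0.05 and the groups of 4 did not overlap, against 27.4%. For UNC0642 it was 0% of the 16321 genes both with any fold and with the fold limit, 1 member had an unadjusted p under 0.05 and the groups of 2 did not overlap, against 52.1%. For Romidepsin it was 0.748% of the 16049 genes with any fold and 0.561% with the fold limit, 2 members had an unadjusted p under 0.05 and the groups of 2 did not overlap, against 26%. Beyond the 2 DZNep calls, the likelihood ratio test called Ccr2 with DZNep, Ccr2, Cxcr4 and Cxcl16 with UNC1999, and Cxcl16 with Romidepsin. The calls that DESeq2 made beyond those 2 were the same except Ccr2 with DZNep. The median log2 fold change of the members tested was -0.24 with DZNep, -0.51 with UNC1999, 0.05 with UNC0642 and -0.19 with Romidepsin.

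**Figure D5:**
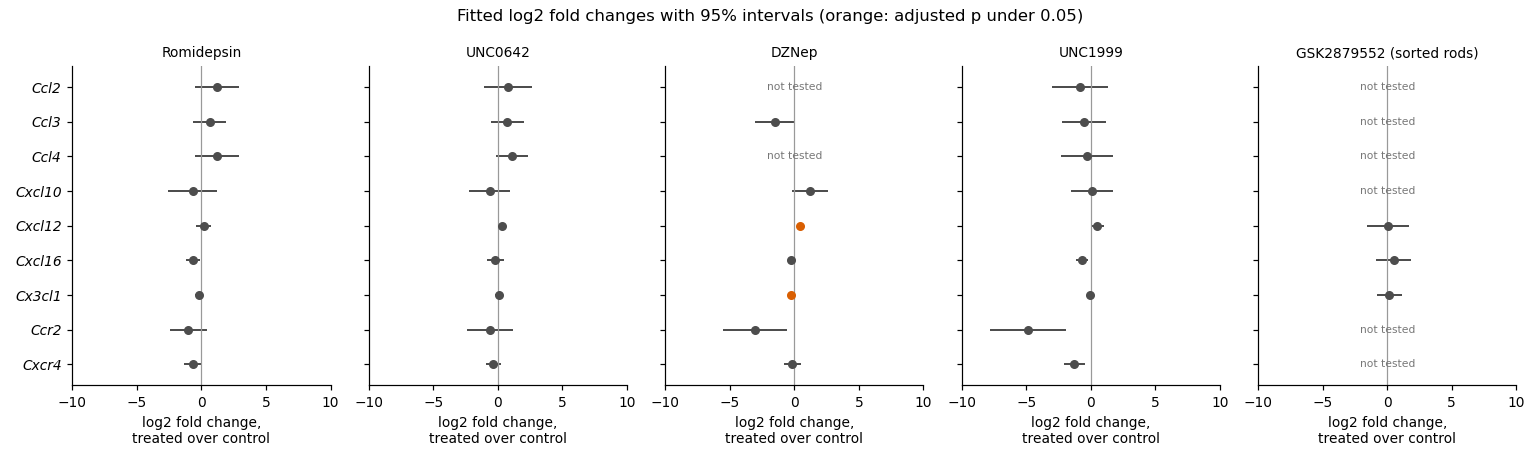
Fitted log2 fold change of each member, treated over control, with its 95% interval in each experiment, orange where the adjusted p was under 0.05. Only Cxcl12 (0.45) and Cx3cl1 (-0.25) with DZNep are orange, and the intervals of the inducible ligands and Ccr2 are far wider than those of Cxcl12, Cxcl16 and Cx3cl1.

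Whether the response of a member differed between inhibitors was tested in 1 fit of all 22 retinas, over 6 pairs of treatments and 54 comparisons of members. DZNep and UNC1999, the 2 inhibitors of EZH2, differed in 0 members, against 0.00579% of all genes. The smallest unadjusted p of this pair was that of Cxcr4, with DZNep above UNC1999 by 1.12 ± 0.43 on the log2 scale (95% interval 0.23 to 2.01, edgeR adjusted p = 0.41). For Ccr2 the difference between them was 1.84 ± 2.87 with a 95% interval of -4.18 to 7.86, so the few counts placed neither compound above the other.

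The other 5 pairs also called 0 members. UNC1999 and Romidepsin differed in the most genes (5.11%), and the log2 fold change of Ccr2 with UNC1999 less that with Romidepsin was -3.85 ± 1.58 at an edgeR adjusted p of 0.162, which the likelihood ratio test called (adjusted p = 0.0427). Against UNC0642 the difference in Ccr2 was -4.28 ± 1.57 (adjusted p = 0.301, background 0.0116%). For Cx3cl1 the change with DZNep less that with UNC0642 was -0.29 ± 0.11 (adjusted p = 0.28, background 0.0232%), and that with UNC0642 less that with Romidepsin was 0.24 ± 0.11 (adjusted p = 0.372, background 0.0174%). DZNep and Romidepsin had no member with an unadjusted p under 0.05, where 0.289% of all genes were called.

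The members fell into groups by how they varied between libraries. With the mean of each experiment subtracted, log2 CPM over the 22 retinas gave a Pearson r of 0.88 between Ccl2 and Ccl3, 0.80 between Ccl2 and Ccl4, and 0.67 between the neighbouring genes Ccl3 and Ccl4. Ccr2 went with Cxcr4 (0.85) more than with its ligand Ccl2 (0.48), and Cxcl16 with Cxcr4 (0.84) and Ccr2 (0.74). Cxcl12 ran opposite to Cxcl16 (-0.54) and Ccr2 (-0.54). These values include the treatment differences and share the libraries and their depth, so they are given as a description.

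Among the 15296 other genes tested in all 4 retina experiments, 3 are named for each member. Closest to Ccr2 were Tgfbi (r = 0.95), Ptprc (0.95), which encodes the pan-leukocyte protein CD45, and Csf2rb (0.94), a shared cytokine receptor subunit. Closest to Cxcr4 were Ptpn6 (0.95), a phosphatase of blood cells, Nfam1 (0.94) and Naip2 (0.94), and closest to Cxcl16 were Mov10 (0.94), Tmem184b (0.93) and Ly86 (0.92). Cx3cl1 was most like Syn1 (0.93), the synaptic vesicle protein synapsin, Panx2 (0.91) and Mapk10 (0.91), a kinase of neurons.

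Cxcl10 was most like Rsad2 (0.83), Mx1 (0.83) and Samhd1 (0.83), antiviral genes that interferon induces. A link between likeness and promoter motifs was not tested. Ccl3 was most like Clic1 (0.91), Tnfaip2 (0.90) and Tgm2 (0.87), and Cxcl12 like Taf1d (0.85), 1700101I11Rik (0.85) and Usp16 (0.84). Ccl2 and Ccl4 were not tested in all 4 experiments and were left out of this search.

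Of the rest of the chemokine system, 55 of 56 listed genes were in the table and few were expressed enough to be tested. The CC ligands had 20 genes in the table, of which 6 were tested with DZNep, 7 with UNC1999, 9 with UNC0642 and 5 with Romidepsin, and 0 were called in each. Of the 13 CXC and XC ligands, 2 to 5 were tested, and 1 was called, Cxcl14 with DZNep, from 104 ± 7.63 CPM (SD, n = 4) in the controls to 89.0 ± 0.550 CPM (n = 2) in the treated retinas (log2 fold change -0.23 ± 0.07 SE, edgeR adjusted p = 0.0402). Among all genes 22.7% were called with DZNep. Of the 22 other receptors, 5 to 9 were tested, and 0 were called with UNC1999, UNC0642 or Romidepsin.

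Cx3cr1, the receptor of CX3CL1, is given as the partner of a member although it was not called, and was chosen after its values were seen. Its mean was 29.8 ± 7.23 CPM (SD, n = 3) in the UNC1999 controls and 14.0 ± 2.97 CPM (n = 3) in the treated retinas, without overlap (log2 fold change -1.09 ± 0.21 SE, edgeR adjusted p = 0.0535). The Romidepsin means were 40.9 ± 7.83 and 24.02 ± 2.48 CPM, also without overlap (-0.77 ± 0.17, adjusted p = 0.0656). The differences were -0.55 ± 0.24 with DZNep (adjusted p = 0.136) and -0.23 ± 0.20 with UNC0642 (adjusted p = 0.599).

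Genes that induce or accompany chemokines through NF-kB and cytokines were called with DZNep only in this test, and the difference between inhibitors was not tested for them here. Of 16 tested, 1 was called higher and 4 lower, against 22.7% of all genes. Tnfaip3, the A20 protein that restrains NF-kB, rose from 145 ± 23.6 CPM (SD, n = 4) to 295 ± 2.84 CPM (n = 2) (log2 fold change 1.02 ± 0.12 SE, edgeR adjusted p = 0.00115). Sorted control rods held 729 ± 34.1 CPM of Tnfaip3 (n = 2), and 12 of 12 rod markers were called higher with DZNep (median log2 fold change 1.23), whose part in the rise of Tnfaip3 was not tested. The adhesion molecule Vcam1 fell by 0.99 on the log2 scale (adjusted p = 0.0013), Icam1 by 0.67 (0.0323), the interleukin-1 receptor Il1r1 by 0.53 (0.039) and the TNF receptor Tnfrsf1a by 0.37 (0.0133).

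With UNC1999, 0 of 17 tested genes of this group were called, with UNC0642 0 of 19, with Romidepsin 0 of 16 and in the rods 0 of 15. An unadjusted p under 0.05 was found for 3, 3, 10 and 1 of them. With Romidepsin the group had a median log2 fold change of 0.41, and 10 of 16 had control and treated retinas that did not overlap, in either direction, against 26% of all genes. Among these 10, Vcam1 (-0.75) and Nfkb1 (-0.42) were lower and the rest higher.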

How the data were processed

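RNA-seq was done on 22 whole retina libraries (Illumina Stranded mRNA Prep) and 4 libraries of sorted rods (SMART-Seq mRNA). Per the labels and the study's methods, the authors trimmed reads with BBDuk, aligned them to NCBIM37 with HISAT2 2.2.1 and deposited 1 table of raw counts per Ensembl gene from HTSeq 0.11.2, whose strand setting was not given in the sources used here. From these counts, each treatment was compared with its own controls in edgeR 4.0.16 (filterByExpr, TMM, quasi-likelihood F test, Benjamini-Hochberg over all genes tested), and responses were compared in 1 fit of the 22 retinas. The study tested each treatment against its controls with edgeR's likelihood ratio test and a fold limit, whereas calls here are at any fold unless stated and the fit of 22 retinas is not the study's. That likelihood ratio test was an alternative beside DESeq2 1.42.0, RLE size factors, no filter, a replicate block and leaving out each library. The samples are labelled as biological replicates. CPM used the TMM library sizes of each experiment. RPKM used the summed exon length of each gene in the GENCODE M1 annotation of NCBIM37. Likeness used log2 CPM with a prior count of 2. Intervals on counts cover counting error only. The members and lists were chosen with earlier results of these data known. Genes named are the 9 members, genes of the chemokine and NF-kB lists with an adjusted p under 0.05, and the 3 genes most like each member. Some markers of cell types and tissues are named beside them. In the annotation the symbols Cxcr7, Ccbp2, Darc and Ccrl1 stand for 4 atypical receptors of the list. 1 gene of the lists is not reported here.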

Additional observations from a re-analysis of the deposited data

How the results depend on the processing

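The signs of Cxcl12 and Cx3cl1 with DZNep, of Ccr2, Cxcr4, Cxcl16 and Cxcl12 with UNC1999, of Cxcl16, Cxcr4, Ccr2, Ccl2, Ccl3 and Ccl4 with Romidepsin and of Ccr2, Ccl3, Cxcl10 and Cxcl16 with DZNep were kept under all alternatives tried. The call of Cxcl12 with DZNep was lost without treated retina 1, and that of Cx3cl1 without 5 of the 6 libraries in turn. Leaving out 1 library turned the sign of 14 uncalled log2 fold changes. Their ranges were -0.28 to 0.059 for Cxcr4 with DZNep; with UNC1999 -1.49 to 0.55 for Ccl2, -1.25 to 0.39 for Ccl3, -0.87 to 0.42 for Ccl4 and -0.38 to 1.10 for Cxcl10; with UNC0642 -0.61 to 2.01 for Ccl2, -0.10 to 1.36 for Ccl3, -1.83 to 0.28 for Cxcl10, -0.47 to 0.16 for Cxcl16 and -2.46 to 0.17 for Ccr2; with Romidepsin -1.74 to 0.21 for Cxcl10 and -0.054 to 0.40 for Cxcl12; and in rods -0.48 to 1.03 for Cxcl12 and -0.28 to 0.62 for Cx3cl1. Ccl4 with UNC0642 was called without the filter (1.06, adjusted p = 0.0226). The cause of these changes was not tested.

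The number of genes called with both limits was 281 for DZNep, 58 for UNC1999, 0 for UNC0642, 90 for Romidepsin and 0 in the rods, where 2407 and 711 genes had an unadjusted p under 0.05 with UNC0642 and in the rods. With any fold it was 3734 for DZNep and 95 for UNC1999. The likelihood ratio test gave 469, 34, 498 and 68 genes for UNC1999, UNC0642, Romidepsin and rods, DESeq2 354, 4, 387 and 47, and the fit without the filter 342, 173, 367 and 168. Without 1 library the ranges were 196 to 335 for DZNep, 4 to 806 for UNC1999, 0 to 99 for UNC0642, 0 to 338 for Romidepsin and 0 to 210 in the rods. UNC1999 reached 806 without control 3 and Romidepsin fell to 0 without control 2, control 3 or treated retina 3.

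Genes whose response differed numbered 1 for DZNep against UNC1999, 4 for DZNep against UNC0642, 50 for DZNep against Romidepsin, 2 for UNC1999 against UNC0642, 883 for UNC1999 against Romidepsin and 3 for UNC0642 against Romidepsin. The likelihood ratio test gave 43, 133, 321 and 73 for the first 4 pairs and 171 for the last, and the fit without the filter 14, 123, 22 and 63 for all but DZNep and Romidepsin against UNC1999. Without 1 library the ranges in this order were 0 to 49, 0 to 158, 4 to 662, 0 to 358, 292 to 2049 and 0 to 368. Of 54 member differences, the likelihood ratio test called Ccr2 for UNC1999 against Romidepsin (-3.96), and no other alternative called any.

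Over all genes tested, replicate numbers did not pair the libraries by the correlation of their deviations. It was -0.28, 0.23 and -0.04 for UNC1999, 0.21, -0.05 and -0.28 for Romidepsin, and, with 2 pairs each, -0.13 for DZNep, 0.21 for UNC0642 and -0.08 in rods. Ccl2, Ccl3, Ccl4 and Cxcl10 were nevertheless highest in replicate 1 of both UNC0642 groups and in replicate 2 of both Romidepsin groups. With UNC1999 they were highest in control 1 but in treated retina 2 or 3. The labels do not say whether the numbers mark paired animals. The replicate block used only numbers present in both groups, so DZNep controls 3 and 4 were left out of it, also for the differences. For DZNep, the block and the missing controls cannot be told apart. With the number as a replicate block, 138 genes were called for DZNep, 21 for UNC1999, 124 for UNC0642 and 3 in rods, and the differences in the order above came to 0, 0, 7, 0, 217 and 0. Under the block Ccr2 was called with DZNep (-3.74, adjusted p = 0.0479), Cxcl12 (0.0915) and Cx3cl1 (0.161) were not, Ccl2 (0.74), Ccl4 (1.08) and Cxcl10 (-0.71) were called with UNC0642 (adjusted p = 0.00376, 0.0195 and 0.00967), and Ccl4 with UNC1999 turned to 0.062.

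Depth limits Ccr2 under both EZH2 inhibitors, Ccl2, Ccl3 and Ccl4 in the DZNep experiment and all members but Cx3cl1, Cxcl12 and Cxcl16 in the rods, where most libraries held fewer than 10 counts. With 2 to 4 libraries in a group, intervals of the inducible ligands span several log2 units.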
